A study of Homo sapiens with 6 samples.

Results

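The genes described here are the protein-coding genes on human chromosome 19 whose symbol is ZNF followed by digits and at most 1 closing letter. The deposited table of 58735 genes holds 246 of them, out of 1472 protein-coding genes on the chromosome, and another 263 genes with symbols of the same pattern lie elsewhere. The rule reads biotype, chromosome and name. The table's own annotation of transcription factor families calls 238 of the 246 C2H2 zinc finger factors and gives no such family for 8.

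C2H2 zinc finger proteins bind DNA through tandem finger modules, and neighbouring members of the family arose largely by local duplication, which left chromosome 19 with long runs of related genes. Many carry a KRAB domain. That domain binds the corepressor TRIM28, which brings in the histone methyltransferase SETDB1, heterochromatin proteins and the NuRD deacetylase complex, so that the bound locus is silenced. Transposable elements and the zinc finger genes themselves are among the known targets.

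RNA was sequenced from HaCaT, an immortalised line of human skin keratinocytes, listed as wild type. The control group had 3 samples, and the other group had 3 samples exposed for 48 h to dacomitinib, which blocks the EGFR family of tyrosine kinase receptors irreversibly. Treatment began at 70% confluence, and the design text mentions 0.1% DMSO for what it calls the experimental group. The sources used here give neither the dose nor what the controls received. No label ties the samples of a group to separate cultures, so p-values refer to the spread among these samples, which may be technical.

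Libraries held 14960650 to 16179273 fragments on genes. Values are FPKM, which corrects fragment counts for the gene's length and the depth of the library. Pearson correlations of log2 values across the tested members were 0.949 to 0.964 for libraries of the same group and 0.809 to 0.835 for libraries of different groups, over genes, which are no independent replicates. The keratinocyte markers KRT5, KRT14, TP63, CDH1 and DSP lay between 36.4 and 471 FPKM in all 6 libraries and KRT17 between 13.1 and 27.5. Of the markers of other skin cells, COL1A2 was at 0 in all 6, and VIM, PTPRC and COL1A1 stayed under 0.5 FPKM, whereas MITF reached 1.75, PMEL 1.37 and PECAM1 0.886. PMEL, a melanosome protein, was 0.612 ± 0.0692 FPKM in controls and 1.32 ± 0.0513 with dacomitinib (SD, n = 3), and its part in the results was not tested. These are bulk samples, in which a change in RNA per cell and a change in which cells are present cannot be told apart.

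The start regions of 9 members are shown first, because letters of an ETS factor site recur in them and because they include genes that went up, went down or were silent. ETS factors are DNA-binding proteins, several of which are phosphorylated by ERK, a kinase downstream of EGFR. Each line runs from 120 bases before to 30 bases after the RefSeq start (GRCh38.p14), 5′ to 3′ on the gene's own strand. Capitals mark the letters CCGGAAG (ETS), GGGCGG (SP1), GCGCATGC (part of the NRF1 site) and TTTGAA (the CHR element of cell cycle genes), on either strand.
ZNF91, chr19:23395442-23395591, minus strand: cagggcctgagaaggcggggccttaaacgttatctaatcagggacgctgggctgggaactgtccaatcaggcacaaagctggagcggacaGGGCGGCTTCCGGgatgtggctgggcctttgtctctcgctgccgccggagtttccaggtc
ZNF93, chr19:19900826-19900975, plus strand: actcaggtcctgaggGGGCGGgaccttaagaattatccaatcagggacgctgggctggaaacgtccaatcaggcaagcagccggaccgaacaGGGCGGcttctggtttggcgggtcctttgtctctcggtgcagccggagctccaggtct
ZNF100, chr19:21767550-21767699, minus strand: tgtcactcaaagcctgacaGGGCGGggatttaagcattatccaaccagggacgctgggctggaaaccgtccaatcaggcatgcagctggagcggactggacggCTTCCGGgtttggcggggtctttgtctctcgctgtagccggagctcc
ZNF180, chr19:44500493-44500642, minus strand: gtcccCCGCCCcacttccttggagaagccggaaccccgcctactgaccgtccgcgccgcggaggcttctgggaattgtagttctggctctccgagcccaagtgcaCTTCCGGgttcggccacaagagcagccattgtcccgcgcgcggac
ZNF787, chr19:56121266-56121415, minus strand: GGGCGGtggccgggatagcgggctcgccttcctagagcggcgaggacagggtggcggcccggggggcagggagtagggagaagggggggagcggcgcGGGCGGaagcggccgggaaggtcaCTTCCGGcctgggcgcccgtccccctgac
ZNF274, chr19:58182941-58183090, plus strand: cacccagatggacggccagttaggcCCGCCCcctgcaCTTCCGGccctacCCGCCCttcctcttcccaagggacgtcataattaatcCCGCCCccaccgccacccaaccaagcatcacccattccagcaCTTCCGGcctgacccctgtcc
ZNF226, chr19:44164980-44165129, plus strand: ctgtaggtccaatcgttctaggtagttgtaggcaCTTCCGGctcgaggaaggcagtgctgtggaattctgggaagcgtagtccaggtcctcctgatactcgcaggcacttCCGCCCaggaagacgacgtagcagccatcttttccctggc
ZNF358, chr19:7515983-7516132, plus strand: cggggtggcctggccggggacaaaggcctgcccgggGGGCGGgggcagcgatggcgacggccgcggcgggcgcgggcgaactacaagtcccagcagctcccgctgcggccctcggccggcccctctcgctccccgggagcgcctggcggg
ZNF581, chr19:55643529-55643678, plus strand: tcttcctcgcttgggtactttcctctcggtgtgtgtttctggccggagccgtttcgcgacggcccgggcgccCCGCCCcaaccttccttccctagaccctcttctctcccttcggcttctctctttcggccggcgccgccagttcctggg
ZNF91, ZNF93 and ZNF100 belong to the same run of genes and show their common descent: over the full 300 bases, ZNF91 and ZNF100 share an identical stretch of 24 bases, and so do ZNF91 and ZNF93. The longest stretch that ZNF91 shares with ZNF180 or ZNF274 is 8 and 7 bases. The ETS letters begin 24 bases before the start in ZNF91 and 17 before it in ZNF100, and ZNF93 has none. In ZNF180 they begin 15 bases before the start. ZNF787 and ZNF274 hold a match that begins 1 and 9 bases after the start, and ZNF358 and ZNF581 hold SP1 letters only. The windows of ZNF358 and ZNF581 lie inside the counted genes, which begin upstream, at 7515292 and 55635459. The sequence at those upstream starts was not read.

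RefSeq windows of 300 bases (250 before and 50 after the start) were found for 215 of the 246 members, and the first window of each gene was read. The ETS letters stood in 98 of them, or 45.6%. The share was 14.4% over 14896 protein-coding genes, 13.2% over the other protein-coding genes of chromosome 19, 34.6% over ZNF genes on other chromosomes and 10.7% over all genes with a window. The SP1 letters were in 67.9% of member windows and 59.5% of protein-coding windows, the NRF1 letters in 4.19% and 4.31%, and the CHR letters in 10.2% and 12%. The median GC content was 59.7% in the members and 63% in protein-coding genes.

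The ETS letters of members lay close to the start. Of 110 matches in members, 77.3% began within 50 bases of the start, against 53.2% of 2506 matches in other protein-coding genes, and the median match began 18 bases before the start in members and 46 before it in the others. The runs of genes differed in this feature: the letters were in 72.4% of 29 windows in the run at 19.7 to 24.1 Mb and 67.5% of 40 windows in the run at 57.2 to 58.5 Mb, but in 8.33% of 24 windows in the run at 11.5 to 12.6 Mb. Members of a run share sequence by descent, so these are not independent counts. A match to these letters is a description and not evidence of binding.

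**Figure D1:**
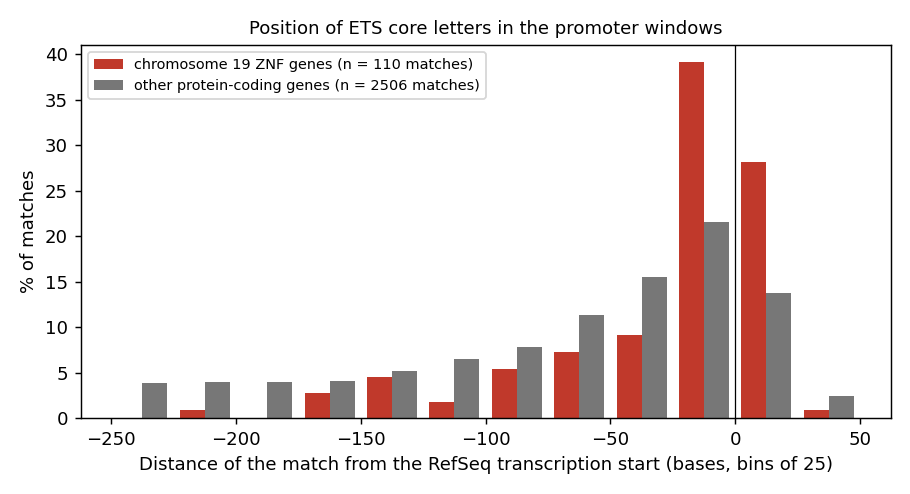
Share of ETS letter matches (vertical axis, %) by their distance from the RefSeq start (horizontal axis, bases, bins of 25) in chromosome 19 ZNF genes (110 matches) and other protein-coding genes (2506 matches). The tallest bar of the ZNF genes, 39.1%, covers the last 25 bases before the start, where the other genes have 21.5%.

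Most members were weakly expressed. No fragment was seen for 29 of them in any library, 95 had fragments but a mean FPKM under 1 over the 6 libraries, and 122 reached that limit and were tested. Of the tested members, 112 had a mean FPKM of 1 to 5, 10 had 5 or more, and 4 had 10 or more. Their median was 2.21 FPKM, against 7.87 in tested protein-coding genes, with a median of 185 fragments per library.

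With dacomitinib 35 of the 122 tested members rose, 13 fell and 74 were not called (limma on log2(FPKM + 1), all 13748 tested genes fitted together, Benjamini-Hochberg adjusted p of 0.05, two-sided). Of all tested genes 60.2% were called, 25.4% higher and 34.8% lower, so the members' share of rises, 28.7%, lay near the background, and their share of falls, 10.7%, lay below it. Their median log2 difference, dacomitinib minus control, was 0.15, against -0.056 over all tested genes. The differences were small on this scale, which understates change at low levels: 3 members differed by 1 or more. The limit on mean FPKM can let a gene in through the group where it is high, so these counts cover the tested members only.

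The summed FPKM of all 246 members was 347, 338 and 365 in the control libraries and 408, 421 and 424 in the dacomitinib libraries. No control library reached the lowest dacomitinib library. The sum weighs abundant members most, among them ZNF581 and ZNF358, which rose, and ZNF146, which fell. The 3 control and 3 dacomitinib values did not overlap in 53 tested members that were higher and 20 that were lower, or 59.8% of the 122, and in 67.1% of all tested genes. Set against the mean of the controls, the median difference of members was 0.13, 0.15 and 0.16 in the 3 dacomitinib libraries, and that of all tested genes was -0.052, -0.069 and -0.066.

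How libraries are scaled to each other changes the counts. FPKM of all genes summed to between 289496 and 298073 in controls and between 228493 and 246591 with dacomitinib. When these sums were made equal (TPM scaling), 63 members (51.6%) rose and 6 (4.92%) fell, against 42.1% and 19.8% of all tested genes. The median moved to 0.35, with that of all tested genes at 0.20. On fragments recovered from the FPKM steps and tested with voom, 55 (45.1%) rose and 15 (12.3%) fell, against 30.4% and 32.1%. The medians there were 0.29 in members and 0.0094 in all tested genes. Relative to the median of all tested genes, the members' median was 0.20 higher with the deposited scaling, 0.15 higher with TPM scaling, 0.28 higher with voom and 0.052 higher with quantile normalization. With quantile normalization 30 members rose and 18 fell, or 24.6% and 14.8%, against 30.4% and 28.6% of all tested genes, so the share of rises lay below the background there. All 35 rises were also called higher with TPM scaling, voom and median-ratio scaling, and 28 of them with quantile normalization. Of the 13 falls, 6 were also called lower with TPM scaling and 12 with each of the other 3, and no member was called in the opposite direction under any of the 4.

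Other gene classes are given for comparison. Among genes at a mean FPKM of 1 to 5, 25.9% of members rose and 9.82% fell, against 25.1% and 28.2% of protein-coding genes at that level. ZNF genes on other chromosomes showed values close to those of the members, with 28.5% higher, 16.1% lower and a median of 0.073 over 186 tested genes. The other protein-coding genes of chromosome 19 had 18.4% higher and 46.6% lower, with a median of -0.21. Of 22 tested non-ZNF coding genes that lie inside the runs of members, 2 rose and 7 fell. These are descriptions, and the differences between classes were not tested.

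**Figure D2:**
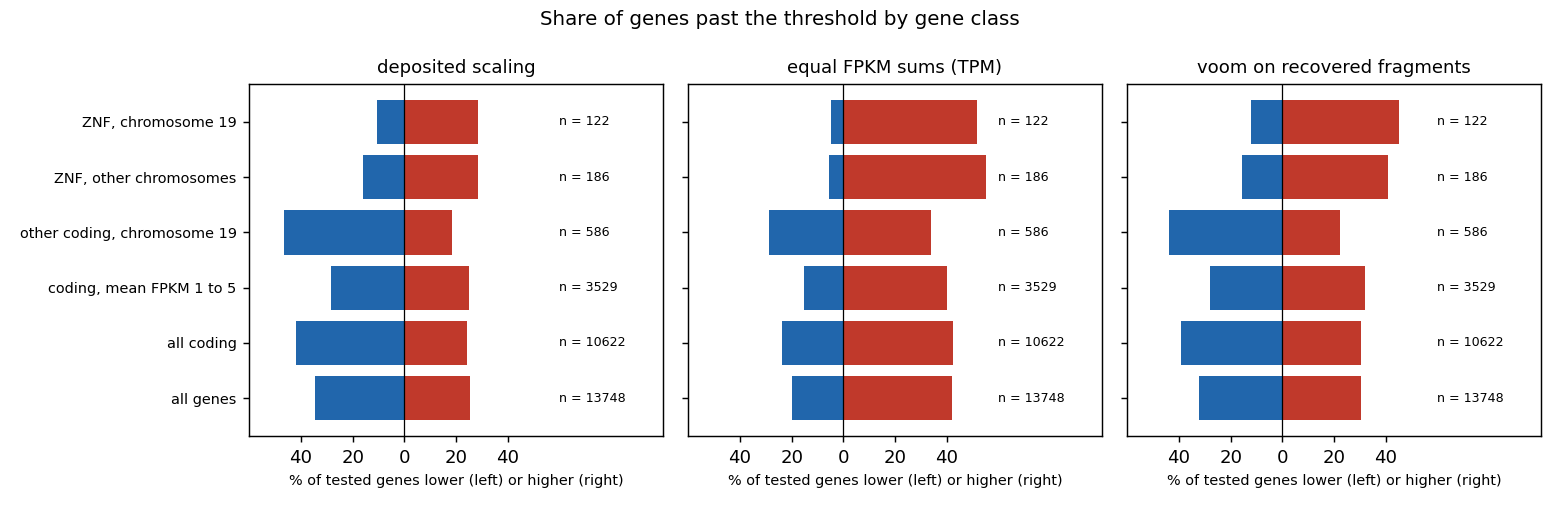
Share of tested genes called lower (blue, to the left) or higher (red, to the right) with dacomitinib, in %, for 6 gene classes (n tested beside each bar) under the deposited scaling, equal FPKM sums and voom. The bar of falls in chromosome 19 ZNF genes, 10.7% under the deposited scaling, is shorter than that of all genes, 34.8%, in each panel, while the bar of rises grows from 28.7% to 51.6% with equal FPKM sums.

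Among the tested members, ZNF581, ZNF524 and ZNF358, which are compact zinc finger genes, had the highest differences in log2(FPKM + 1). ZNF581 (ENSG00000171425, chromosome 19, 55635459 to 55645622, GRCh38) was at 6.51, 6.72 and 6.97 FPKM in controls and 21.0, 17.9 and 18.5 with dacomitinib. Its log2 difference was 1.38 (SE 0.068, adjusted p = 1.04e-05, limma), and it became one of the most abundant members. ZNF524 (ENSG00000171443, 55600022 to 55603138) was at 4.88, 3.58 and 5.45 FPKM and then at 11.9, 10.2 and 10.9, a difference of 1.10 (SE 0.13). ZNF358 (ENSG00000198816, 7515292 to 7521026) went from 7.71, 8.78 and 6.77 FPKM to 20.5, 16.8 and 15.6, a difference of 1.09 (SE 0.12). In all 3 genes every dacomitinib library lay above every control library.

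ZNF581 overlaps ZNF580 on the same strand, ZNF524 overlaps a gene on the opposite strand, and ZNF358 overlaps 1 gene on each strand. The counting is not stated to use strand, so shared reads cannot be assigned. ZNF580, named here after its values were seen, was at 3.65, 3.59 and 3.71 FPKM in controls and 6.04, 4.97 and 5.44 with dacomitinib, and rose by 0.48 (SE 0.075, adjusted p = 0.00160, limma).

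A second set of rises was at lower levels, with dacomitinib libraries above all controls throughout. ZNF846 was at 1.05, 0.895 and 0.748 FPKM in controls and 2.46, 2.43 and 2.38 with dacomitinib, a difference of 0.86 (SE 0.11). Its ratio of mean FPKM, 2.70, was above those of ZNF524 (2.38) and ZNF358 (2.27) and below that of ZNF581 (2.84), so the order of the rises depends on the pseudocount. ZNF211 was at 1.84, 1.28 and 1.75 FPKM and then 3.60, 3.51 and 3.43, a difference of 0.79 (SE 0.11). ZNF44 rose from 1.42, 1.27 and 1.34 FPKM to 2.83, 3.36 and 2.43, a difference of 0.72 (SE 0.12). ZNF224, ZNF561, ZNF226 and ZNF160 complete the 10 largest rises on the log2(FPKM + 1) scale, the last 3 with differences of 0.57, 0.55 and 0.51 and adjusted p-values between 0.000723 and 0.00947 (limma). ZNF226, whose start region is shown above, was at 2.18, 2.36 and 2.19 FPKM in controls and 3.67, 3.60 and 3.94 with dacomitinib.

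Among the falls of tested members, ZNF331, a KRAB gene with a proposed tumour suppressor role, came first. It was at 1.96, 1.92 and 1.99 FPKM in controls and 0.870, 0.777 and 0.792 with dacomitinib, a difference of -0.71 (SE 0.11, adjusted p = 0.00150, limma; ENSG00000130844, 53519527 to 53580269). ZNF787 was at 6.91, 5.67 and 6.58 FPKM and then 4.44, 3.04 and 3.26, a difference of -0.70 (SE 0.13). ZNF628 went from 2.68, 2.34 and 3.09 FPKM to 1.26, 1.38 and 1.37, a difference of -0.66 (SE 0.11). ZNF331 had the tightest controls of these genes, and in none of them did the groups overlap.

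ZNF587B and ZNF551, which lie in the run nearest the long-arm end, fell as well. ZNF587B was at 3.74, 3.33 and 4.69 FPKM in controls and 1.98, 2.26 and 2.07 with dacomitinib (difference -0.66, SE 0.12), and ZNF551 was at 3.01, 2.77 and 3.09 and then 1.64, 1.96 and 1.43 (difference -0.57, SE 0.10). ZNF180 was at 2.66, 2.33 and 3.01 FPKM and then 1.41, 1.64 and 1.25 (difference -0.59, SE 0.11). These 6 falls were also called with TPM scaling. The falls of ZNF100, ZNF507, ZNF888 and ZNF146, between -0.51 and -0.36 on this scale, were not, with adjusted p-values there between 0.0737 and 0.531 (limma). ZNF100 had a ratio of mean FPKM of 0.522, lower than those of ZNF787 (0.561) and ZNF551 (0.566), since the pseudocount shrinks differences at low levels.

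ZNF473, which takes part in the processing of histone pre-mRNA, was at 2.94, 3.03 and 2.89 FPKM in controls and 2.09, 2.09 and 2.34 with dacomitinib. Its difference was -0.32 (SE 0.077, adjusted p = 0.0110, limma) and -0.090 with TPM scaling, where it was not called. It was named after its values were seen.

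**Figure D3:**
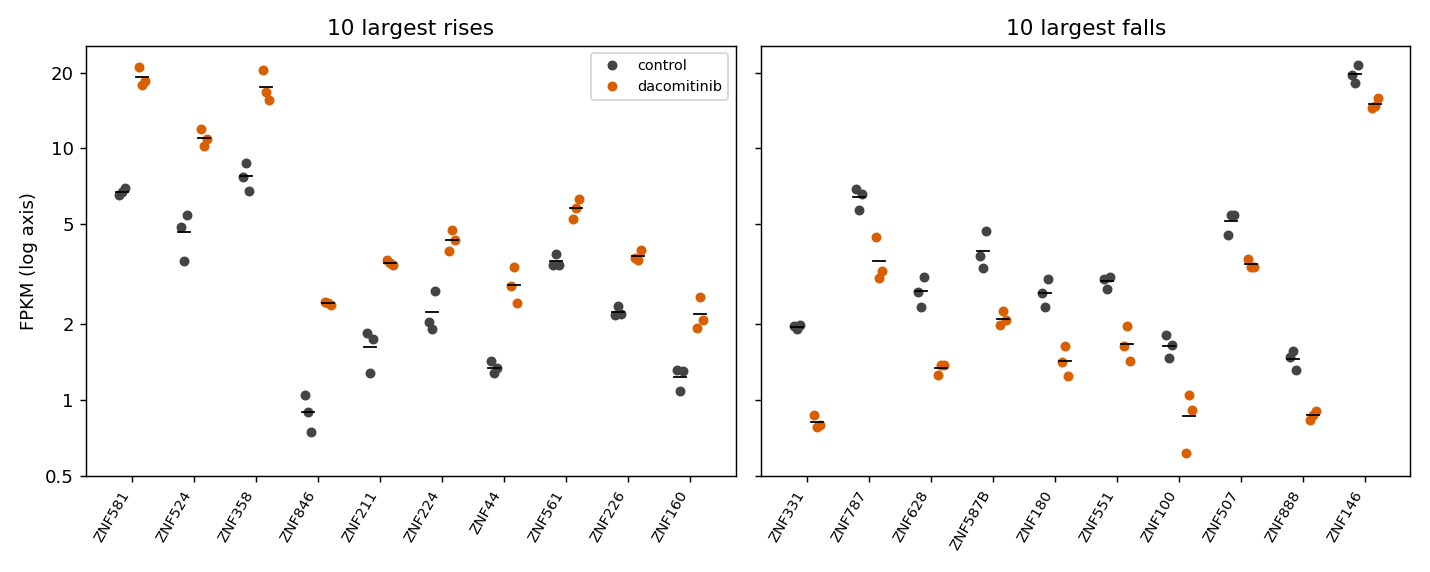
FPKM (log axis) in each control (grey) and dacomitinib (orange) library for the 10 largest rises (left) and the 10 largest falls (right), with the group mean as a bar. In each of the 20 genes the 3 dacomitinib values lie on one side of the 3 control values, with ZNF581 going from 6.74 to 19.2 FPKM on average.

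The 5 members with the highest mean FPKM were ZNF146, ZNF581, ZNF358, ZNF121 and ZNF317. ZNF146, which consists of zinc fingers without a KRAB domain, was at 19.5, 18.1 and 21.4 FPKM in controls and 14.4, 14.8 and 15.9 with dacomitinib, and fell by 0.36 on the log2 scale (SE 0.070, adjusted p = 0.00388, limma). With TPM scaling its difference was -0.064 (adjusted p = 0.531) and with quantile normalization -0.13 (adjusted p = 0.145). ZNF581 and ZNF358 passed ZNF146 in the dacomitinib group, where the means were 19.2, 17.6 and 15.0 FPKM, against 6.74, 7.75 and 19.7 in controls. The dacomitinib libraries of ZNF358 and ZNF146 overlap, so that order does not hold beyond their spread. ZNF121 (10.7 ± 0.125 and 10.6 ± 0.983 FPKM) and ZNF317 (8.48 ± 0.600 and 8.14 ± 0.0649, SD, n = 3) differed by -0.017 and -0.052, and by 0.27 and 0.23 with TPM scaling, where both were called higher.

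Among the members with known roles are repressors of retrotransposons. ZNF91, which represses SVA and LINE elements, was at 1.53, 1.53 and 1.79 FPKM in controls and 2.05, 2.43 and 2.68 with dacomitinib. It rose by 0.37 (SE 0.11, adjusted p = 0.0238, limma), a call lost without control library 1 or 2 or dacomitinib library 2 or 3 (adjusted p between 0.0669 and 0.0829). ZNF93, which represses LINE elements, had no fragment in any of the 6 libraries. ZNF100, their neighbour with a related start region, was at 1.82, 1.47 and 1.65 FPKM in controls and 0.615, 1.05 and 0.912 with dacomitinib (difference -0.51, SE 0.14, adjusted p = 0.0200, limma). That call was lost without control library 1 or 3 (adjusted p = 0.0774 and 0.0553). ZNF91 and ZNF100, which both hold the ETS letters just before the start, differed in opposite directions.

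ZNF274, which recruits SETDB1 to zinc finger genes, was at 2.79, 2.45 and 2.67 FPKM in controls and 3.65, 3.77 and 3.83 with dacomitinib, a rise of 0.39 (SE 0.070, adjusted p = 0.00310, limma). ZNF224, a partner of WT1, was at 2.05, 1.91 and 2.72 FPKM and then 3.91, 4.75 and 4.34, a rise of 0.73 (SE 0.12, adjusted p = 0.00170, limma). Neither gene's groups overlapped. ZNF420, a regulator of p53, had 0.971 ± 0.00826 and 1.21 ± 0.0671 FPKM and a difference of 0.17 (SE 0.12). ZNF175, known as an inhibitor of HIV transcription, had 2.71 ± 0.371 and 3.10 ± 0.128 FPKM and a difference of 0.15 (SE 0.095). ZNF304 had 3.03 ± 0.489 and 3.04 ± 0.294 FPKM (difference 0.0087, SE 0.11). ZNF649, which represses serum response element reporters, had 1.77 ± 0.199 and 1.24 ± 0.151 FPKM (difference -0.30, SE 0.12). The last 4 genes were not called, with adjusted p-values of 0.284, 0.224, 0.950 and 0.0647 (limma, SD with n = 3). Some settings called 3 of them. ZNF175 was higher with TPM scaling (0.38, adjusted p = 0.0169, limma) and with voom (0.27, adjusted p = 0.0459). ZNF649 was lower with quantile normalization (-0.44, adjusted p = 0.0188, limma), and both ZNF649 and ZNF420 were called when the variance did not follow the mean level (adjusted p = 0.0200 and 0.0289, limma).

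By position, members were grouped wherever gaps between neighbours stayed within 500 kb, which gave 10 runs of at least 5 members and left 14 members outside. On the short arm 33 members were tested, with 15 higher (45.5%), 1 lower (3.03%) and a median difference of 0.28. On the long arm 89 were tested, with 20 higher (22.5%), 12 lower (13.5%) and a median of 0.13, against 25.4% higher and 34.8% lower over all tested genes. With TPM scaling 22 (66.7%) were higher and 0 lower on the short arm, and 41 (46.1%) higher and 6 (6.74%) lower on the long arm, against 42.1% and 19.8% over all tested genes. The share of rises on the long arm thus lay near the background under these scalings, but above it with voom. With voom 36 (40.4%) were higher and 13 (14.6%) lower on the long arm, against 30.4% and 32.1% over all tested genes. On the short arm 19 (57.6%) were higher and 2 (6.06%) lower with voom. The difference between the arms was not tested.

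In the first run (2.82 to 2.94 Mb, 5 members) ZNF554 was the single rise among 3 tested, from 1.46 ± 0.240 to 2.21 ± 0.190 FPKM (difference 0.39, SE 0.11). Its call was lost without control library 2 or 3 or dacomitinib library 3 (adjusted p between 0.0653 and 0.0807, limma). The second run (8.51 to 9.79 Mb, 13 members) had 5 rises and no fall among 11 tested, led by ZNF846. ZNF44 led the third (11.5 to 12.6 Mb, 25 members), with 5 rises and no fall among 8. Neither run had a fall with TPM scaling or voom among these tested members, and ZNF440 of the third run was lower with voom at a minimum of 20 fragments (-0.27, adjusted p = 0.0374).

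The next run (19.7 to 24.1 Mb) is the one nearest the centromere, with 37 members, of which 14 had no fragment in any library and 9 were tested. ZNF506 rose there from 1.55 ± 0.151 to 2.50 ± 0.155 FPKM (difference 0.46, SE 0.096), with ZNF431 and ZNF91 also higher and ZNF100 lower. In the fifth run (34.7 to 35.0 Mb) ZNF302 rose from 5.13 ± 0.243 to 7.15 ± 0.526 FPKM (difference 0.41, SE 0.068), the single call among 3 tested. The sixth (36.2 to 37.8 Mb, 26 members) had 5 tested members, with ZNF529 higher (1.19 ± 0.273 to 2.12 ± 0.239 FPKM, difference 0.51, SE 0.13) and ZNF146 lower. The call of ZNF529 was lost without dacomitinib library 2 (adjusted p = 0.0550, limma).

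The seventh run (43.5 to 44.5 Mb, 23 members) had 4 rises and 1 fall among 15 tested, with ZNF224 and ZNF180 at the extremes. The eighth (51.6 to 53.6 Mb, 39 members) had 5 rises and 2 falls among 22, the falls being ZNF331 and ZNF888. ZNF888 was at 1.48, 1.56 and 1.32 FPKM in controls and 0.834, 0.868 and 0.905 with dacomitinib (difference -0.39, SE 0.12, adjusted p = 0.0305, limma), and its adjusted p lay between 0.0615 and 0.101 without control library 1 or 2 or any 1 of the dacomitinib libraries.

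The ninth run (55.5 to 56.7 Mb, 16 members) held the widest spread, from -0.70 to 1.38, with 3 rises and 3 falls among 9 tested and a median of -0.0014. ZNF524, ZNF580 and ZNF581 rose, ZNF628 and ZNF787 fell, and ZNF865, which lies between ZNF524 and ZNF580, went from 6.10 ± 0.266 to 4.87 ± 0.280 FPKM (difference -0.28, SE 0.062, -0.0080 with TPM scaling, named after its values were seen). The tenth (57.2 to 58.5 Mb, 43 members) had 4 rises and 3 falls among 28 tested, with ZNF211 and ZNF587B at the extremes. Outside the runs, 3 rose and 2 fell among 9 tested, ZNF358 and ZNF507 being the extremes. ZNF507 was at 4.54, 5.45 and 5.42 FPKM in controls and 3.63, 3.37 and 3.37 with dacomitinib (difference -0.46, SE 0.081).

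Of 103 pairs of tested members next to each other in a run, 6 were both higher, 0 both lower and 5 called in opposite directions. In 55 pairs 1 of the members was called, and in 37 neither was. No share over neighbouring genes elsewhere was computed. The correlation of the differences of neighbours was -0.070 (Pearson, across pairs that share genes, given as a description). Of the 122 tested members, 83 overlap another annotated gene, with 25 higher and 10 lower, and 39 overlap none, with 10 higher and 3 lower. Of all tested genes 25.4% were higher and 34.8% lower, and members with and without an overlap were not tested against each other.

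**Figure D4:**
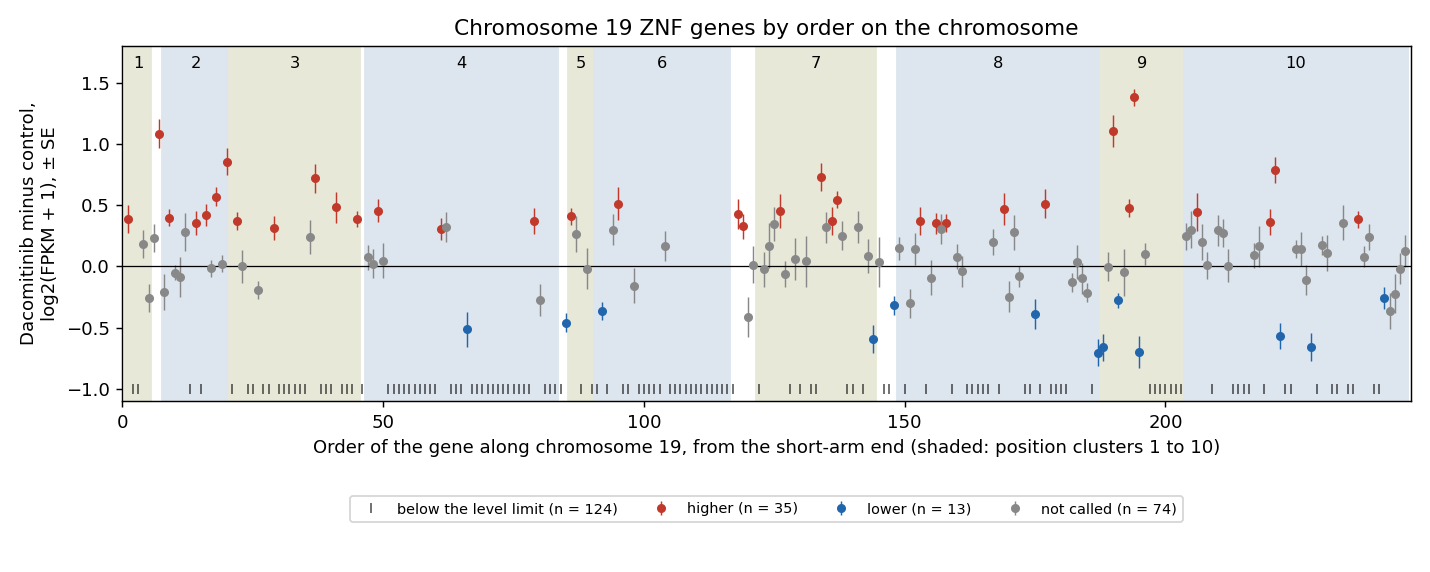
Difference in log2(FPKM + 1), dacomitinib minus control, with its SE, for each tested member (red higher, blue lower, grey not called) in the order of the genes along chromosome 19. Shading marks the 10 runs and ticks at the foot mark the 124 members below the level limit. The largest rise, 1.38, and a fall of -0.70 lie in the same run, the ninth.

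Members of every call held the ETS letters. They stood in 43.8% of 32 windows of members that rose, 63.6% of 11 that fell, 45.3% of 64 not called and 44.4% of 108 not tested. The groups are small and share sequence within runs, and no test was made.

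Members under a mean FPKM of 1 were examined on recovered fragments, a setting chosen after seeing the data. At least 20 fragments over the 6 libraries were found for 74 of these 95, and with voom 23 were higher, 4 lower and 47 not called. The members' 31.1% higher and 5.41% lower compare with 22.9% and 5.87% of 6741 genes in the same range, and the median difference was 0.52 in members and 0.57 in all of them. Over all 196 members with at least 20 fragments, 70 (35.7%) were higher and 24 (12.2%) lower, against 24.7% and 27.5% of 20186 genes. This minimum, too, can admit a gene through the group where it is high: 4 of the 74 members would have missed it had both groups held the fragments of the lower one. Of these ZNF382 and ZNF844 are among the 23 higher, ZNF724 is among the 4 lower and ZNF564 was not called. In the sixth run 9 were higher and 2 lower among 22 members with at least 20 fragments, which include the 5 that had passed the level limit. Of all genes at that minimum 24.7% were higher and 27.5% lower.

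ZNF546 had 24, 62 and 26 fragments in controls and 165, 157 and 192 with dacomitinib, a log2 difference of 2.08 (SE 0.27, adjusted p = 1.27e-06, voom). ZNF528 had 12, 15 and 35 and then 101, 103 and 115 (2.27, SE 0.34). ZNF724 went down, from 32, 15 and 21 fragments to 1, 3 and 2, and ZNF430, a member of the same run, from 105, 100 and 122 to 59, 52 and 82 (-0.99, SE 0.22). ZNF382, a repressor with a proposed tumour suppressor role, had 0, 0 and 1 fragments in controls and 8, 5 and 15 with dacomitinib. It overlaps ZNF529, which rose, head to head on the opposite strand, over positions 36604817 to 36605276. Fragments in that stretch cannot be assigned to either gene, and how many of those counted for ZNF382 lie there is not known. ZNF844 had no fragment in controls, which allows up to 3 in each library, and 4, 8 and 8 with dacomitinib. Apart from ZNF382, these genes were named after their values were seen.

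**Figure D5:**
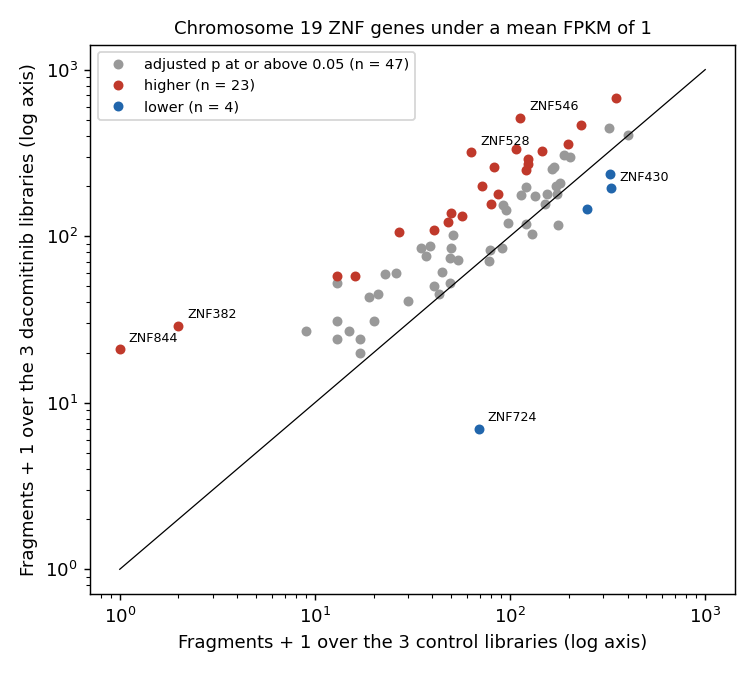
Fragments plus 1 summed over the 3 dacomitinib libraries (vertical, log axis) against those over the 3 control libraries (horizontal, log axis) for the 74 members under a mean FPKM of 1 with at least 20 fragments. Red points, 23, were higher and blue points, 4, lower with voom, and ZNF546 and ZNF724 stand far from the diagonal of equal fragments.

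The corepressor machinery through which KRAB proteins act was read from a list of 26 genes, all of which were tested. Of these 19 fell, 3 rose and 4 were not called, against 34.8% lower and 25.4% higher among all tested genes, and the median difference was -0.35. Most of the list had a mean FPKM of 5 or more, a level at which 48.8% of protein-coding genes were lower and 23.8% higher. With TPM scaling 10 (38.5%) were lower and 6 (23.1%) higher, against 19.8% lower and 42.1% higher among all tested genes, with a median of -0.081 against 0.20. Of protein-coding genes at a mean FPKM of 5 or more, 28.2% were lower and 43.6% higher with that scaling. TRIM28, the KRAB corepressor, which lies beyond the tenth run on chromosome 19 (58544091 to 58550722), was at 95.2, 88.0 and 95.5 FPKM in controls and 54.6, 48.4 and 48.9 with dacomitinib. It fell by 0.86 (SE 0.062, adjusted p = 4.82e-05, limma), and by 0.55 with TPM scaling. SETDB1 was at 6.05, 6.66 and 6.21 FPKM and then 8.46, 6.99 and 7.76, a rise of 0.25 (SE 0.076, adjusted p = 0.0250).

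The largest falls of the list were in UHRF1, DNMT1 and SUV39H1, of which UHRF1 and DNMT1 maintain DNA methylation and SUV39H1 methylates histone H3. UHRF1 went from 16.4 ± 1.43 to 0.833 ± 0.155 FPKM (-3.25, SE 0.092), DNMT1 from 30.4 ± 1.96 to 5.44 ± 0.207 (-2.29, SE 0.060) and SUV39H1 from 4.55 ± 0.440 to 0.931 ± 0.123 (-1.52, SE 0.10). The largest rises were in CHD3, a NuRD remodeller (36.2 ± 3.23 to 47.5 ± 1.05 FPKM, 0.39, SE 0.067), and MORC3 (8.52 ± 0.430 to 10.9 ± 0.472 FPKM, 0.32, SE 0.057). Whether these changes bear on the zinc finger genes was not tested.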

How the data were processed

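The deposited table gives FPKM made by the authors for 58735 genes, with gene length, position and biotype, and all 6 of its sample columns were used (0 were left out). The submitters' processing notes name GRCh38 and the tools DESeq2 1.20.0, featureCounts, HISAT2, fastp and CASAVA without their roles. Columns C and a number are the control samples of that number. The letter S of the other 3 stands in no label, so they were given to dacomitinib by elimination, and every direction rests on this. Multiplied by gene length, 100% of the deposited FPKM values fell on whole steps of 1 fragment (tolerance 0.01), which gave fragments per gene. The depth by which the authors divided was 0.946 to 0.954 times the fragment sum in the controls and 1.05 to 1.09 times it in the dacomitinib libraries, so the libraries were scaled to each other before deposit. The sources used here do not say how.

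Genes with a mean FPKM of 1 or more were tested on log2(FPKM + 1) with limma 3.58.1 (R 4.3.3), letting the variance follow the mean level. TPM scaling means FPKM brought to equal sums. Errors are SD of FPKM (n = 3) or SE of log2 differences. Other pseudocounts, filters, scalings and limma settings, voom, a replicate block and leaving out each library were tried, and the procedure was tested on simulated data. Same-numbered columns did not visibly deviate together (correlations of 0.0267, -0.0158 and 0.0402), so numbers were not taken to pair samples. With 3 columns per group this check cannot exclude a pairing. Members and lists were chosen with earlier results of these data known. The rule names the 10 largest rises and falls with groups that do not overlap, the 5 highest levels, 11 members with known roles and the extremes of each run, 34 genes in all, and of the corepressor list the 3 largest changes each way, TRIM28 and SETDB1. Promoter windows come from RefSeq (GRCh38.p14). Protein features were not analysed here. Strand is not stated for the counting, and reads of near-identical paralogs may have been divided or dropped.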

Additional observations from a re-analysis of the deposited data

How the results depend on the processing

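Of the 26 named members that were called, 19 kept their call under every alternative run and 7 (ZNF100, ZNF146, ZNF507, ZNF529, ZNF554, ZNF888 and ZNF91) lost it under at least 1. The 48 members that differed (35 higher, 13 lower) became 8 (6 and 2) at a mean FPKM of at least 5, where 10 members were tested. That is 60% higher and 20% lower, against 25.3% and 47.3% of all genes tested at that limit. With TPM scaling 63 (51.6%) were higher and 6 (4.92%) lower, against 42.1% and 19.8% of all tested genes. With voom 55 (45.1%) were higher, against 30.4%. On fragments with a minimum of 20, chosen after seeing the data, 94 of 196 (48.0%) differed, 70 higher and 24 lower. Of all genes in that setting 52.1% differed. The replicate block, on numbers that were not taken to pair the samples, gave 42 calls (32 and 10), or 34.4% of members against 57.3% of all tested genes. Leaving out 1 library gave 35 to 45 calls, 24 to 34 higher and 11 to 12 lower, and medians of 0.13 to 0.20. The share called was 28.5% to 36.9% in members and 53.0% to 57.0% in all tested genes. The median of 0.15 was 0.20 and 0.17 with pseudocounts of 0.1 and 0.5, 0.35 at a mean FPKM of at least 5, 0.091 with no filter, 0.35 with TPM scaling, 0.21 with median-ratio scaling, 0.072 with quantile normalization, 0.29 with voom and 0.35 on fragments with a minimum of 20. The cause was not tested. Uncalled members near 0 changed sign. ZNF121 was 0.27 with TPM scaling, 0.065 with median-ratio scaling, 0.16 with quantile normalization and 0.059 with voom, and lay between -0.054 and 0.055 when 1 library was left out (positive without dacomitinib library 1). ZNF317 was 0.23, 0.029, 0.091 and 0.022 in the same 4 settings. With quantile normalization ZNF420 was -0.0062 and ZNF304 -0.0024, and ZNF304 lay between -0.051 and 0.11 when 1 library was left out (negative without control library 1, control library 2 or dacomitinib library 2). Depth limits the members below 20 fragments, for which no difference was assessed.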

Other observations

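Antisense genes named after a member were measured beside their hosts. Of 14 such genes 2 passed the level limit, and both rose (limma), where 25.4% of all tested genes were higher. ZNF529-AS1 was at 0.907, 1.35 and 0.910 FPKM in controls and 2.43, 2.61 and 2.00 with dacomitinib, a difference of 0.71 (SE 0.14, adjusted p = 0.00424), and ZNF460-AS1 was at 0.670, 1.76 and 1.57 and then 2.75, 2.78 and 3.74, a difference of 0.84 (SE 0.21, adjusted p = 0.0130). Their hosts ZNF529 and ZNF460 rose as well, by 0.51 and 0.44. Of the 12 below the limit, 6 had at least 20 fragments, of which 2 were higher and 4 not called (voom). Of all genes in that range 22.9% were higher and 5.87% lower, and 6 genes are too few to set against these shares. ZNF561-AS1 had 54 fragments in the controls together and 145 in the treated libraries together (adjusted p = 0.00630, voom), and its host ZNF561 rose by 0.57. ZNF30-AS1 had 2 and 22 fragments, so that it reached the minimum through the treated libraries, and its host ZNF30 was not called (-0.018). The 4 not called were ZNF433-AS1, ZNF571-AS1, ZNF528-AS1 and ZNF350-AS1, and the last had a difference of -0.92 beside a host, ZNF350, that rose by 0.37. Where a gene and its antisense partner overlap, reads in the shared stretch cannot be told apart here.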
